A study of Rattus norvegicus with 4 samples.

Results

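Myogenic factors, neuromuscular junction genes and atrophy genes were followed in RNA from the rat middle ear lining after inoculation with bacteria. The set holds 10 genes chosen by name, MYOD1, MYOG, MYF6, CHRNA1, CHRNB1, CHRND, SCN4A, CLCN1, TRIM63 and FBXO32, and each was found as 1 of the 27832 features of the deposited table. Sprague-Dawley (SD) rats, all of them without any genetic change named in the labels, received an injection of 50 µL through the eardrum of the right ear, either medium alone (media), S. aureus (MRSA), P. aeruginosa (PA) or a mixed culture (MRSA + PA). After 1 week the lining of the bulla was scraped off and its polyadenylated RNA was sequenced. Each group is 1 library and 4 libraries were made in all. Without replicates, no difference could be set against a spread and no p-value is given. The labels give neither the age of the rats nor the number of rats in a library. Levels are FPKM, fragments scaled to transcript length and library size, so levels of different genes can be compared per length. The values come without read counts, so the depth behind each of them is unknown. Where 4 values follow each other they stand in the order media, MRSA, PA, MRSA + PA, and where 3 do, in the order MRSA, PA, MRSA + PA.

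MyoD (MYOD1), myogenin (MYOG) and MRF4 (MYF6) are transcription factors of the basic helix-loop-helix class that commit cells to the muscle lineage and maintain muscle gene expression, and they bind short DNA elements called E-boxes. At the neuromuscular junction, acetylcholine released by the motor nerve opens a receptor built from alpha, beta, delta and epsilon subunits, and the depolarisation is carried along the fibre by the sodium channel SCN4A and damped by the chloride channel CLCN1. TRIM63 (MuRF1) and FBXO32 (atrogin-1) encode ubiquitin ligases known for their increase in wasting muscle. In the ear, skeletal muscle is present as the tensor tympani and the stapedius. A bulk library does not separate cell types, so fewer muscle cells and less of a transcript per muscle cell cannot be told apart.

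The labelled tissue was checked against its markers first. Of 10 epithelial markers, all averaged 1 FPKM or more, and BPIFA1, a secreted protein of airway epithelium, ranged from 7472 FPKM in PA to 25725 FPKM in media. A reference list of 34 measured skeletal muscle genes, most of them contractile and metabolic, summed to 13398, 5052, 38.7 and 30.5 FPKM. The libraries therefore stand apart in muscle transcripts, and this sum is given beside the results below. Of 7 cardiac markers, none reached a mean of 1 FPKM, and NPPA, GATA4 and NKX2-5 were listed at 0 in all 4 libraries.

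The promoters of 8 of the 10 genes were matched by symbol in the RefSeq promoter table of the GRCr8 build, which holds 250 bases before and 50 bases after a gene's start. They are shown for a pair of the factors themselves and for genes of the junction and of atrophy. These were chosen with their levels known, most of them near 0 in PA and CHRNB1 not. Capitals mark E-boxes, searched as CANNTG, which reads the same on both strands.
MYOG, chr13:48297226-48297525, plus strand: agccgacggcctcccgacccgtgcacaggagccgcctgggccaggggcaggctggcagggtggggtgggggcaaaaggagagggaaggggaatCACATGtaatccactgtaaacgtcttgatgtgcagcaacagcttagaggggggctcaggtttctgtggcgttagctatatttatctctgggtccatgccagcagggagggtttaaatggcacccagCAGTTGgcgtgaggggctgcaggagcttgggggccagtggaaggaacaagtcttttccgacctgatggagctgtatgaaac
MYF6, chr7:44701264-44701563, minus strand: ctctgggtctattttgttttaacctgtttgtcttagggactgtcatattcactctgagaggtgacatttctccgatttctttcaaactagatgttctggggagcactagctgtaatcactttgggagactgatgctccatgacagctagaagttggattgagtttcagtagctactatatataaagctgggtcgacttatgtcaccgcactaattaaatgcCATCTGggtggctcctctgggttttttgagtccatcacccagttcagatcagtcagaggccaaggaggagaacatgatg
CHRNA1, chr3:78877304-78877603, minus strand: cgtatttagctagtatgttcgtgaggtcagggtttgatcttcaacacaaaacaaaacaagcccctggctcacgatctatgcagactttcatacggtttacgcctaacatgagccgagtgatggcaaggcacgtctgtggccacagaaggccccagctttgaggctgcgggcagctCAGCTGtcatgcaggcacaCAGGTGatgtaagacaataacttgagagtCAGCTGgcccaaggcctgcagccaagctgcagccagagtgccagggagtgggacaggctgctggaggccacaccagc
CHRNB1, chr10:55015058-55015357, minus strand: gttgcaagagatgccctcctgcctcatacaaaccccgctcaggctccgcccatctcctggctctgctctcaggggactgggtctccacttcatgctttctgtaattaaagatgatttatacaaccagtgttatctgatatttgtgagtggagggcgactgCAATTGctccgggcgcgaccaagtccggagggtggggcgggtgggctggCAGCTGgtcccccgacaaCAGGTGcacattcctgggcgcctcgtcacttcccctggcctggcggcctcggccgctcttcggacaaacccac
CHRND, chr9:95310066-95310365, plus strand: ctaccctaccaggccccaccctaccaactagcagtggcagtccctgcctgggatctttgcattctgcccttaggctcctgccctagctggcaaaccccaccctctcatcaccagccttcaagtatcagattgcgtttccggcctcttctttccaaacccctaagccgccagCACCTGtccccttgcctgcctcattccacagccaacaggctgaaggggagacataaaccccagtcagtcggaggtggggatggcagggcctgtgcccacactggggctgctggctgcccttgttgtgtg
TRIM63, chr5:151816986-151817285, plus strand: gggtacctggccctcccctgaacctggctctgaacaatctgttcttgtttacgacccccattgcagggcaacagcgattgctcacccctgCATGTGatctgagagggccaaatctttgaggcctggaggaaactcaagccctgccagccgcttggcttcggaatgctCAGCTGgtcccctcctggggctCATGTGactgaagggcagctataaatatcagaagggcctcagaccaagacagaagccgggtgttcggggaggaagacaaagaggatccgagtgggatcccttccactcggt
An E-box was present in all 8 matched promoters, 19 in total, and in 72.1% of the 33469 promoters of the table. The form CAGCTG, a subset of these E-boxes, was present in 4 of the 8, against 15.1% of all promoters. CHRNA1 held 2 of them, whose first bases lie 75 and 27 bases before the start, and CHRNB1, SCN4A and TRIM63 held 1 each. The MEF2 consensus was searched on both strands as C or T, TA, 4 bases of A or T, TA, and A or G. It was present in 2 of the 8, MYF6 and CLCN1, and in 3.29% of all promoters. Near matches were not counted, such as ctatatttat in MYOG and ctataaatat in TRIM63, which miss only the last base. CHRNA1 and CHRNB1 both held the forms CAGCTG and CAGGTG. Whether any of these elements bears on the levels given below was not tested. MYOD1 and FBXO32 were not among the matched promoters.

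The 3 myogenic factors were highest in media, lower in MRSA and listed at 0 in PA and in MRSA + PA. MYOD1 (chromosome 1, 103481589 to 103484314 in the numbering of the files, which name no build) had 4.56, 1.23, 0 and 0 FPKM. MYOG (chromosome 13, 56182747 to 56185336), which drives fusion and terminal differentiation of myoblasts, had 5.65, 1.63, 0 and 0 FPKM. MYF6 (chromosome 7, 49749554 to 49751448), the factor most abundant in adult fibres, had 7.01, 2.37, 0 and 0 FPKM. The order MYF6, MYOG, MYOD1 was the same in media and MRSA, but without replicates it cannot be said which neighbours differ beyond their spread. On the log2(FPKM + 0.1) scale the difference of MRSA from media was -1.81 for MYOD1, -1.74 for MYOG and -1.53 for MYF6. No fold is given against PA or MRSA + PA, since a gene listed at 0 leaves none. The MYF6 feature overlaps LIN7A on the opposite strand, which had 7.41, 3.31, 4.74 and 5.38 FPKM, while MYF6 itself was listed at 0 in the last pair of libraries.

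The acetylcholine receptor subunits split into CHRNA1 and CHRND, which followed the factors, and CHRNB1, which stayed above 1 FPKM in every library. CHRNA1 (chromosome 3, 66925970 to 66940958), the alpha subunit that binds acetylcholine, had 4.98, 1.75, 0 and 0 FPKM. CHRND (chromosome 9, 94010141 to 94018560), the delta subunit, had 2.65, 0.701, 0.0498 and 0.0537 FPKM. Both were lowest in the PA and MRSA + PA libraries, at or near 0. CHRNB1 (chromosome 10, 56135720 to 56148237), the beta subunit, had 7.42, 3.46, 2.35 and 1.57 FPKM. Its log2 differences from media were -1.08, -1.62 and -2.17, against -1.78, -4.20 and -4.16 for CHRND. The level of CHRNB1 per FPKM of CHRND was 2.80, 4.94, 47.3 and 29.3, so the subunits differed from media by unequal factors. Whether cells other than muscle gave the remaining CHRNB1 was not tested.

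The adult and fetal forms of the receptor differ in a further subunit, epsilon (CHRNE) in adult muscle and gamma (CHRNG) before innervation. CHRNG was at 0.0544 FPKM in media and 0.0470 in MRSA, and was listed at 0 in PA and MRSA + PA. The CHRNE feature had 85.0, 72.8, 55.5 and 59.2 FPKM, far above the other subunits in all 4 libraries. It spans 29533 bp, against 9019 bp for the RefSeq gene in GRCr8, and 4 other features lie across it in the files, among them RPL36A at 347 to 562 FPKM and RNF167 at 33.8 to 44.3 FPKM. Reads of these genes could not be separated from those of CHRNE, so its value is not read as a level of the epsilon subunit.

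**Figure D1:**
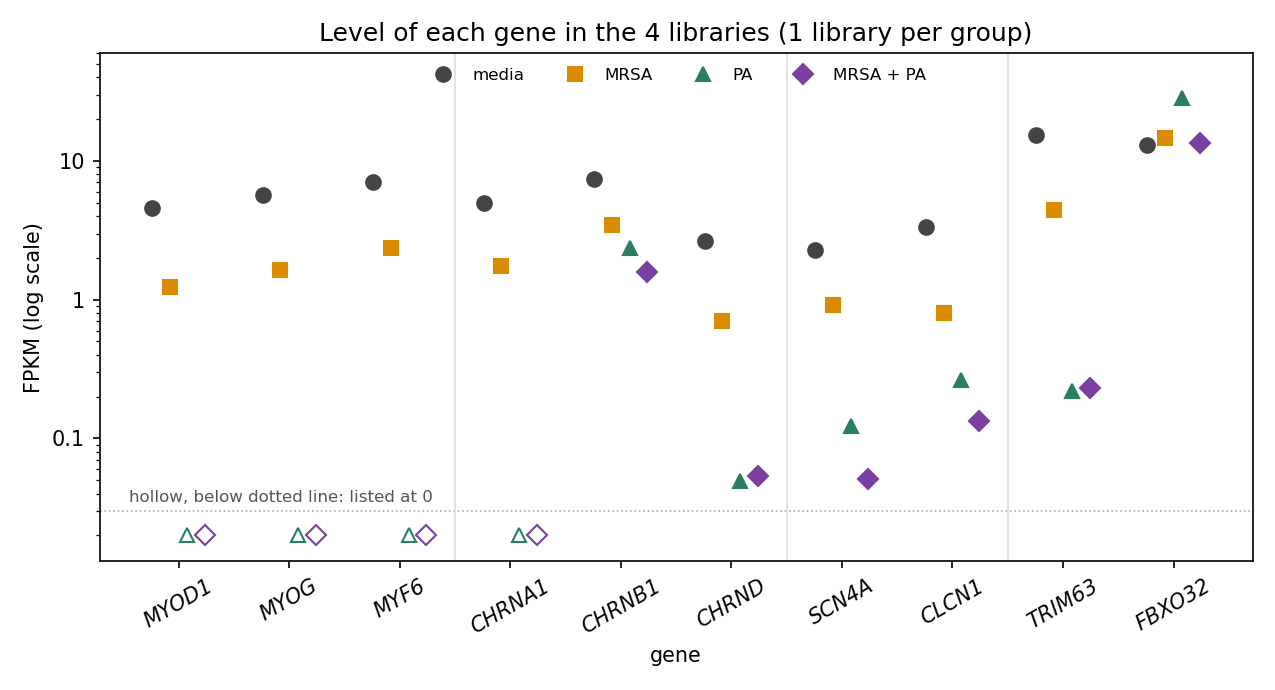
Level of the 10 genes in the 4 libraries (x axis, genes grouped as myogenic factors, receptor subunits, channels and ubiquitin ligases; y axis, FPKM on a log scale; points, 1 library each, hollow where listed at 0). Media (circles) is highest for 9 of the 10 genes, and FBXO32 is highest in PA at 28.6 FPKM.

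The membrane channels were lower in each inoculated library than in media and lowest in MRSA + PA. SCN4A (chromosome 10, 94255695 to 94306006), the muscle sodium channel, had 2.297, 0.923, 0.124 and 0.0514 FPKM. CLCN1 (chromosome 4, 136479778 to 136508243), the muscle chloride channel, had 3.32, 0.803, 0.265 and 0.133 FPKM. The log2 differences of SCN4A from media were -1.23, -3.42 and -3.99 in MRSA, PA and MRSA + PA, and those of CLCN1 were -1.92, -3.23 and -3.88. CLCN1 was 1.45 times SCN4A in media and 0.870 times in MRSA, a change in order between libraries whose error is unknown. FAM131B lies partly across CLCN1 on the opposite strand and had 2.91 to 3.75 FPKM in the 4 libraries, so it was near 3 FPKM where CLCN1 was under 1 FPKM.

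The ubiquitin ligases lay on opposite sides of media in PA. TRIM63 (chromosome 5, 156292559 to 156343206), which marks myofibrillar proteins for degradation, had 15.4, 4.41, 0.222 and 0.231 FPKM. FBXO32 (chromosome 7, 98663437 to 98702297), the substrate-binding part of an SCF ligase, had 13.0, 14.6, 28.6 and 13.6 FPKM. TRIM63 was thus lower than media in all 3 inoculated libraries, with log2 differences of -1.78, -5.59 and -5.55, while FBXO32 was 2.20-fold above media in PA, a log2 difference of 1.13. In MRSA and MRSA + PA, FBXO32 differed from media by 0.17 and 0.06, under the 2-fold limit used here. The level of FBXO32 per FPKM of TRIM63 was 0.843, 3.31, 129 and 58.8. The TRIM63 feature spans 50648 bp against 13818 bp for the RefSeq gene, and SLC30A2 lies across it on the same strand. SLC30A2 had 0.119, 0.153, 0.143 and 0.0961 FPKM, of the same order as TRIM63 in PA and MRSA + PA. Whether its reads entered the TRIM63 level there, and so the quotients of 129 and 58.8, was not tested.

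Markers of other cells moved in all 3 inoculated libraries, PA, where FBXO32 was highest, among them. In PA, 5 of 10 epithelial markers were at least 2-fold above media, and 1, BPIFA1, at least 2-fold below. The 5 were MUC5B, SCGB1A1, KRT5, KRT14 and CDH1. Among all 15944 features that averaged 1 FPKM or more, 1602 were at least 2-fold above media in PA and 7.80% below. KRT14, a keratin of basal epithelial cells, had 136, 161, 483 and 256 FPKM, so it too was highest in PA. Its feature spans 34947 bp, against 4269 bp for the RefSeq gene. The summed level of these 10 markers was 26581, 12635, 10431 and 15188 FPKM, in which BPIFA1 takes the main share. Of 6 macrophage and monocyte markers, 3 were at least 2-fold higher in PA and 1, LYZ2, lower, with summed levels of 146, 378, 287 and 263 FPKM. The part of these cells in the FBXO32 level was not tested.

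Counted together, 9 of the 10 genes were at least 2-fold lower in MRSA than in media and 0 were higher. Among all 22962 features above 0 in any library 8.81% were that much lower and 10.1% higher, and among the 15944 that averaged 1 FPKM or more 4.95% were lower. In PA, 9 of the 10 were lower (11.5% of all, 7.80% of those with at least 1 FPKM) and 1, FBXO32, was higher (12.7% of all, and 1602 of the 15944). In MRSA + PA, 9 were lower (12.1% and 7.83%) and 0 were higher (8.95% of all). These 3 comparisons share the media library, so the repeated count of 9 is not independent evidence. The 8 genes with a mean of at least 1 FPKM had a median log2 difference of -1.63, -5.57 and -5.55, beside 0.05, 0.07 and 0.05 for all such features. SCN4A and CHRND lay under that limit, and 4 of the 8 were listed at 0 in PA and MRSA + PA, which makes these medians depend on the 0.1 FPKM added. Over the 6 genes above 0 in the libraries compared, the median was -3.32 for PA against media, and -3.93 for MRSA + PA. For FBXO32, the sign of each difference from media was the same under 2 other scalings, but in MRSA + PA it ranged only from 0.01 to 0.10.

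Set directly against MRSA, PA was at least 2-fold lower for 8 of the 10 genes (7.13% of features above 0, 5.03% of those with at least 1 FPKM), all but CHRNB1 and FBXO32. MRSA + PA was lower than MRSA for 9 (8.54% and 5.73%), all but FBXO32. For TRIM63, the gene with the highest level among the 9 that were lower, the log2 difference from MRSA was -3.81 in PA and -3.77 in MRSA + PA. Between MRSA + PA and PA, 1 gene was at least 2-fold lower, FBXO32, with a log2 difference of -1.07 (7.91% and 4.27%). CLCN1, SCN4A and CHRNB1 followed with -0.65, -0.56 and -0.55, while CHRND and TRIM63 both differed by 0.04. With 1 library each, none of these differences between inoculated libraries could be set against replicate error.

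The levels of the 10 genes were next set beside those of the 34 skeletal muscle reference genes. In MRSA the reference genes stood at 16.6% to 58.8% of their media level, with a median of 34.3%, and 9 of the 10 genes lay within that range, from 24.2% for CLCN1 to 46.7% for CHRNB1. FBXO32, at 113% of media, lay above all 34. In PA the reference genes stood at 0.00374% to 7.18% of media, with a median of 0.340%. TRIM63 at 1.44%, CHRND at 1.88% and SCN4A at 5.38% lay within, CLCN1 at 7.99% and CHRNB1 at 31.7% above, and the 4 genes listed at 0 below. In MRSA + PA, 6 reference genes were listed at 0 as well, and 8 of the 10 genes lay within the reference range of 0% to 8.66%, all but CHRNB1 at 21.2% and FBXO32 at 104%. A range that starts at 0% holds any gene listed at 0, so the count in MRSA + PA is set in part by the floor. In PA the 4 genes listed at 0 lay below the range only because no reference gene was listed at 0 there. The nearness of the low values to 0 limits what can be read from their order.

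**Figure D2:**
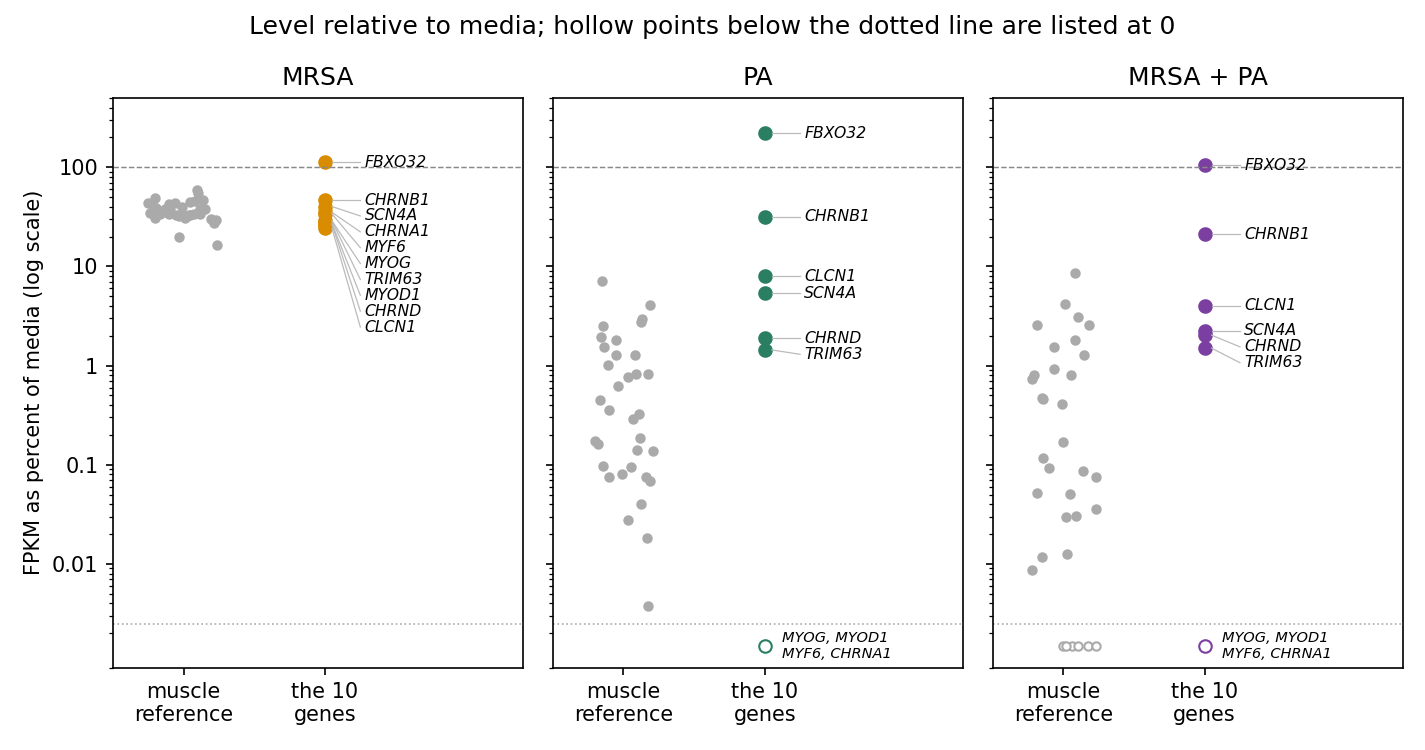
Level in each inoculated library as percent of the media library (y axis, log scale; grey points, 34 skeletal muscle reference genes; coloured points, the 10 genes; hollow points, listed at 0; dashed line, the media level). In MRSA 9 of the 10 genes lie within the grey points, and in all 3 libraries FBXO32 lies above them.

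Expressed per 1000 FPKM of the reference sum, 9 of the 10 genes differed less between media and MRSA than as FPKM, and FBXO32 differed more. MYOD1 went from 0.340 to 0.244, MYOG from 0.422 to 0.322, MYF6 from 0.523 to 0.469 and CHRNA1 from 0.371 to 0.346. TRIM63 went from 1.15 to 0.874 and SCN4A from 0.171 to 0.183. Relative to media, these quotients lay between 0.641 for CLCN1 and 1.24 for CHRNB1 in 9 of the 10 genes, and FBXO32 had 2.99. In PA and MRSA + PA the reference sum of 38.7 and 30.5 FPKM came largely from PYGM, ENO3 and TNNT3, which carries over into any quotient for these libraries. Per 1000 FPKM of that sum, TRIM63 stood at 5.73 in PA and 7.57 in MRSA + PA, CHRNB1 at 60.9 and 51.7, and FBXO32 at 740.2 and 444.9, against 0.554 for CHRNB1 and 0.969 for FBXO32 in media. On the log2 scale, with 0.1 FPKM added to each gene, the quotient in PA relative to media was 6.82 for CHRNB1 and 9.57 for FBXO32, and with the median over the reference genes in place of the sum it was 5.71 and 8.46.

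Genes that act with the myogenic factors stayed for the most part near media. Of 23 measured regulators, 16 averaged 1 FPKM or more. Of these, 0 were at least 2-fold higher and 1 lower in MRSA. The counts were 0 and 2 in PA, then 1 and 1 in MRSA + PA. Among all 15944 features with that mean, 4.95%, 7.80% and 7.83% were lower. Higher were 8.47% in MRSA, 1602 of the 15944 in PA and 7.78% in MRSA + PA. These shares also stand beside the counts of the other gene lists. The medians of the regulators were -0.19, -0.02 and -0.20. SMYD1, a histone methyltransferase of striated muscle, had 10.5, 3.43, 0 and 0.0116 FPKM and was the gene lower in all 3. ID3, which keeps helix-loop-helix factors from binding DNA, had 352, 236, 169 and 230 FPKM, and its relative ID2 had 221, 174, 121 and 140 FPKM. TCF12, a widely expressed partner of MyoD, had 34.7, 35.0, 41.3 and 36.9 FPKM. MSC (musculin), a repressor of the same class, was highest in MRSA + PA, with 5.001, 7.34, 8.10 and 10.9 FPKM. The satellite cell factors PAX7 and MYF5, named after their values were seen, were at most 0.746 and 0.321 FPKM, both in media. Of the 8 satellite cell markers, 4 averaged 1 FPKM or more, and the summed level of all 8, at 130, 139, 131 and 166 FPKM, came mainly from VCAM1 and SDC4, which other cells also make. Among these 4, ITGA7, an integrin of muscle cells, was at least 2-fold lower in all 3 inoculated libraries and VCAM1 at least 2-fold higher in MRSA + PA, with medians of 0.16, -0.30 and 0.49.

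Among 20 other neuromuscular junction genes, 17 of which averaged 1 FPKM or more, the counts at least 2-fold below media were 5, 6 and 4, and those above were 0, 1 and 0. The list medians were -0.25, -0.27 and -0.30. A feature named MUSK, for the receptor kinase that assembles the junction, had 3.99, 0.252, 0.482 and 1.30 FPKM, and a feature named COLQ, for the collagen tail of acetylcholinesterase, had 5.49, 2.48, 0.390 and 3.63 FPKM. Each is the higher of 2 features of its name and covers a small part of the gene, 11511 bp against 114094 bp in RefSeq for MUSK and 2996 bp against 92242 bp for COLQ, so these values are not read as levels of the whole genes. Both stay in the counts of lower genes above, MUSK in each inoculated library and COLQ in MRSA and PA, and CHRNE is among the 17. AGRN (agrin), which activates MUSK and is made by many tissues, had 24.1, 26.1, 42.4 and 26.9 FPKM, with its highest level in PA. LAMB2, a laminin of the synaptic and other basement membranes, had 51.3, 35.1, 39.4 and 31.8 FPKM. On the nerve side, none of the 7 measured motor axon markers except ISL1 reached a mean of 1 FPKM, with summed levels of 8.39 to 11.7 FPKM and MNX1 listed at 0 in all libraries. Schwann cell markers summed to 418, 186, 164 and 167 FPKM, and of the 7 that averaged 1 FPKM or more, 4, 5 and 5 were at least 2-fold lower. Their part in the junction genes was not tested.

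Genes of membrane excitability form the list closest in role to SCN4A and CLCN1. Of 11 that averaged 1 FPKM or more, 6, 7 and 7 were at least 2-fold below media, while 0, 1 and 0 were above, and the medians were -1.04, -2.69 and -3.30. ATP1B1, a widely expressed subunit of the sodium pump, had 153, 182, 165 and 150 FPKM. CAV3, the muscle caveolin, had 20.5, 7.91, 0.298 and 0.0706 FPKM, and JSRP1, a protein of the junctional sarcoplasmic reticulum, had 14.9, 5.04, 0.324 and 0.0675 FPKM. ATP1B1 thus stayed within 2-fold of media in the libraries in which CAV3 and JSRP1 were under 1 FPKM.

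**Figure D3:**
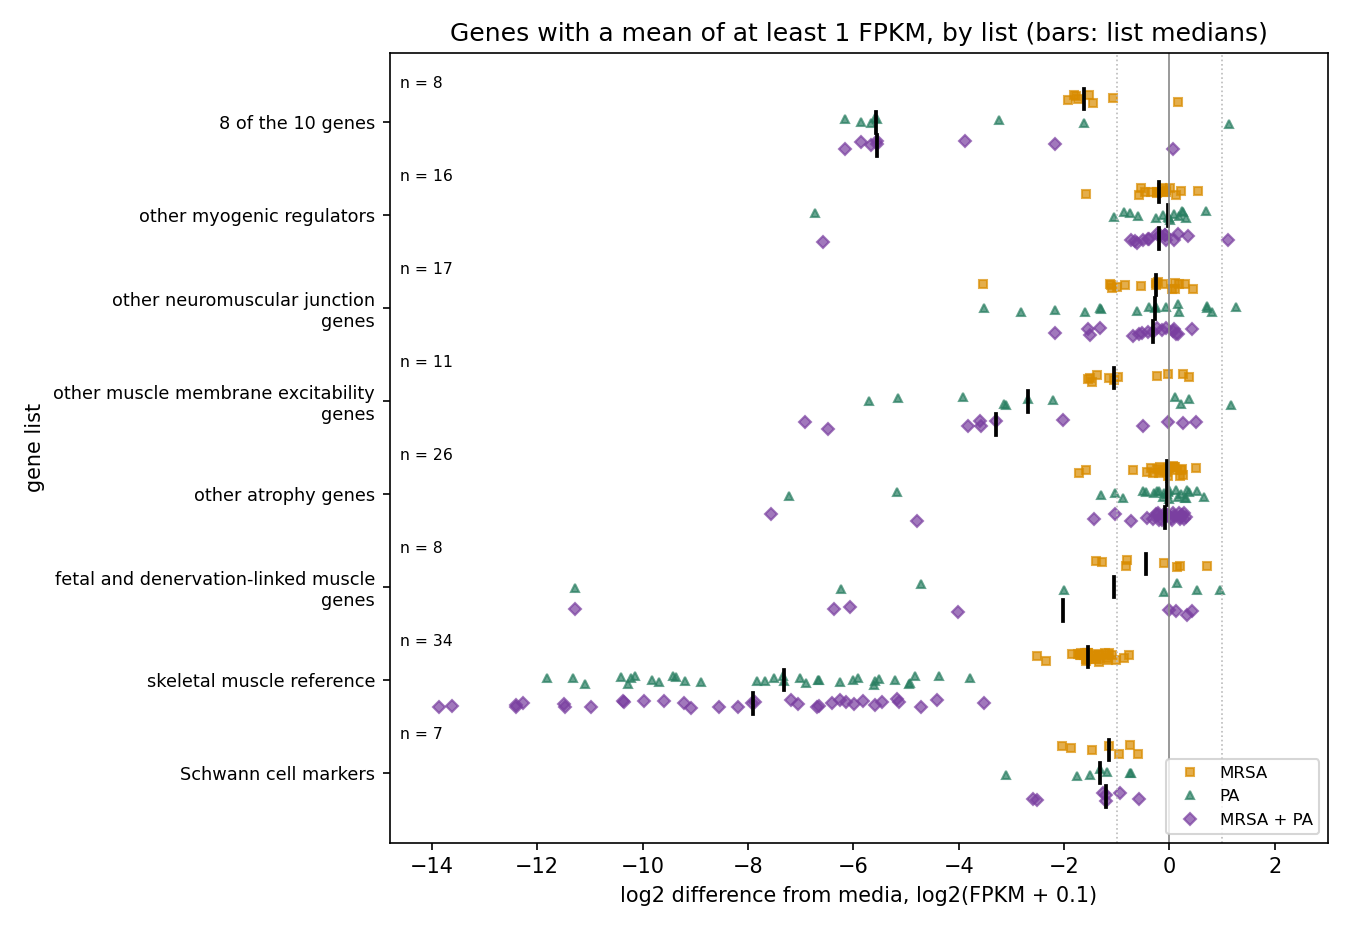
Log2 difference from media for genes with a mean of at least 1 FPKM (x axis, log2(FPKM + 0.1); y axis, gene lists; points, genes in MRSA, PA and MRSA + PA; black bars, list medians; dotted lines, 2-fold). The 8 genes plotted from the set have medians of -1.63, -5.57 and -5.55, and the atrophy list lies near 0.

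The other atrophy genes lay near media with few exceptions. All 26 measured averaged 1 FPKM or more, and 0 were at least 2-fold higher in any inoculated library, while 2, 4 and 4 were lower. The medians were -0.05, -0.04 and -0.08. TRIM54, a relative of TRIM63 in striated muscle, had 18.8, 6.17, 0.0258 and 0 FPKM, and FBXO40, a muscle F-box protein, had 3.51, 0.992, 0 and 0.0296 FPKM. TRIM55 and BNIP3 were the other genes lower in PA and MRSA + PA, named here after their values were seen. CTSL, a lysosomal protease of many cells, had 469, 664, 675 and 584 FPKM, SQSTM1, an autophagy receptor, had 167, 199, 164 and 191 FPKM, and MYLIP, a ubiquitin ligase, had 125, 134, 136 and 113 FPKM. FBXO32 was the 1 gene of the 28 atrophy genes, TRIM63 included, at least 2-fold above media in PA.

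**Figure D4:**
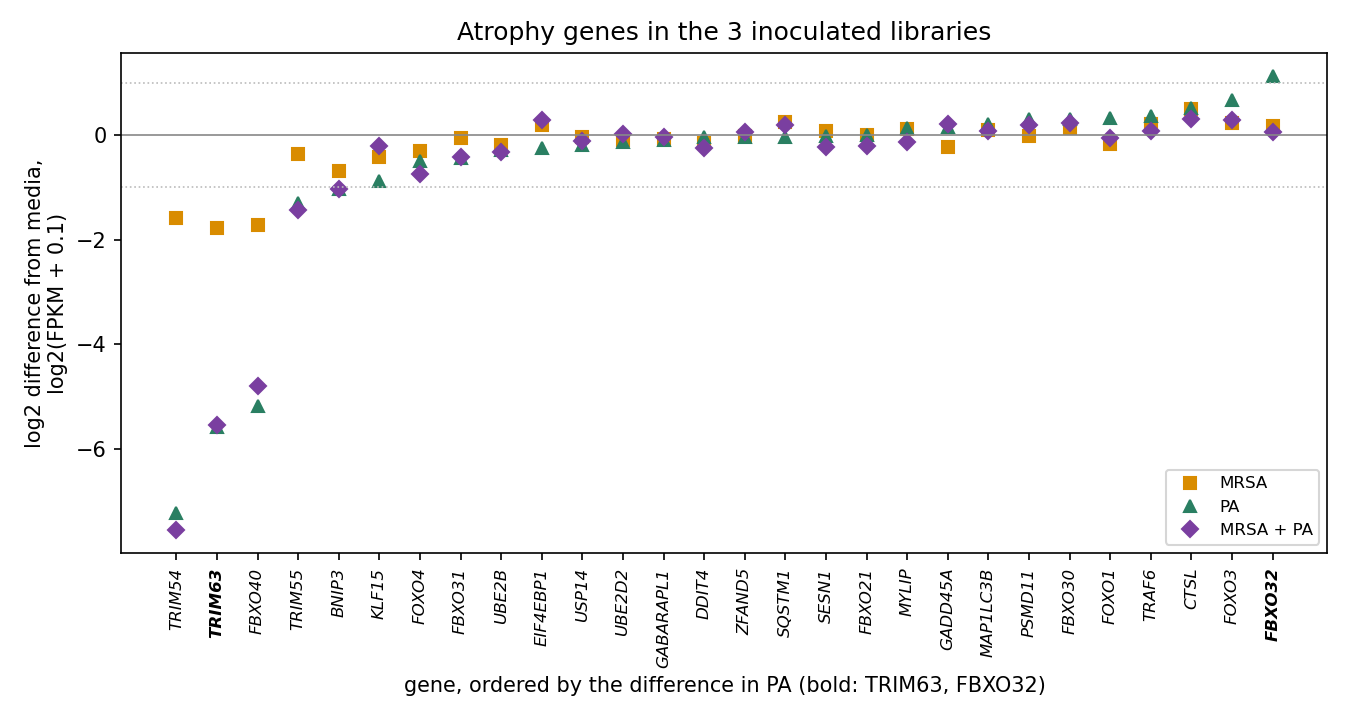
Log2 difference from media (y axis, log2(FPKM + 0.1)) of TRIM63, FBXO32 and 26 other atrophy genes in MRSA, PA and MRSA + PA (x axis, genes ordered by the difference in PA; dotted lines, 2-fold). TRIM54, TRIM63 and FBXO40 lie lowest and FBXO32 highest in PA, at 1.13.

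Genes linked to fetal or denervated muscle were 13 measured, 8 of them with a mean of at least 1 FPKM. Of these 2, 4 and 4 were at least 2-fold below media, and 0 were above it in any library, with medians of -0.45, -1.05 and -2.01. SLN (sarcolipin), which regulates the calcium pump of muscle, had 247, 142, 0 and 0 FPKM. MYH8, the perinatal myosin, had 8.68, 4.87, 0.0162 and 0.00577 FPKM. Both kept more of their media level in MRSA than the 3 myogenic factors did, with log2 differences of -0.80 and -0.82. RUNX1, a factor of blood cells that denervated muscle also makes, had 25.3, 27.8, 36.4 and 27.4 FPKM, and IGF2, a growth factor, had 39.8, 65.2, 44.0 and 53.4 FPKM.

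Likeness of pattern was measured as the root mean square distance of centred log2(FPKM + 0.1) values over the 4 libraries, among 10855 features that carry a gene name and average 5 FPKM or more. The nearest to MYF6 was HRC, a calcium-binding protein of the sarcoplasmic reticulum, at a distance of 0.03, and RYR1, the calcium release channel of muscle, was the nearest to MYOD1 (0.11), CHRNA1 (0.10) and TRIM63 (0.10). For MYOG it was GPD1, a glycerol phosphate enzyme, at 0.11. Second nearest were ANGPTL7 for MYOD1 and TRIM63 (both 0.21), RYR1 for MYOG (0.13), ENO3 for MYF6 (0.10) and GPD1 for CHRNA1 (0.12). CLCN1 lay nearest to CA3, a carbonic anhydrase of slow muscle and fat (0.08), and then to CHAD, a cartilage matrix protein (0.18). MYOD1, MYOG, MYF6 and CHRNA1 were listed at 0 in PA and MRSA + PA, so their profiles there, and with them their nearest features, are set by the 0.1 FPKM added, and no other added value was tried for the distances. CHRNB1 lay nearest to CAPN6 (0.09), with 18.4, 8.71, 6.26 and 4.70 FPKM, and then to C1QTNF3 (0.10). FBXO32 lay nearest to CD163, a scavenger receptor of macrophages, at 0.04, with 5.93, 6.47, 12.7 and 5.77 FPKM, and then to SCNN1A, a subunit of the epithelial sodium channel (0.08). With 4 libraries these distances describe the profiles and say nothing of shared control.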

How the data were processed

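Middle ear mucosa RNA of 4 groups, 1 library each, was analysed. Groups were taken from the source names, because the treatment label describes MRSA for every sample. FPKM of 27832 features were deposited; the authors obtained them from quality-filtered reads mapped with STAR 2.3.0e and quantified with Cufflinks 2.1.1 (submitters' processing notes and the paper's methods, with multi-read and fragment bias correction). Coordinates fall on 20 numbered chromosomes and X, whereas the methods name a human reference, and the files name no build. The comparison tables repeat these FPKM to 2 decimals and also hold fold changes and p-values of the authors' own tests, which were not used. A further 6 columns of library values there were not used. The submitters' notes also name edgeR.

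For each gene the feature with the highest mean FPKM was taken, and each of the 10 symbols had 1 feature. Differences are log2(FPKM + 0.1), which understates changes of low genes, and 2-fold or more was counted, in 6 pairs of libraries. Medians used features that averaged 1 FPKM or more. No test was made. CHRNE, CHRNG and, in each list, the 3 genes of highest mean FPKM plus the 2 furthest from media (among those averaging 1 FPKM or more) could be named, and for each of the 10 genes with that mean the 2 nearest profiles. PAX7, MYF5, TRIM55, BNIP3, KRT5, CDH1, PYGM, TNNT3, NPPA, GATA4, NKX2-5 and MNX1 fall outside it and were chosen with their values known. Values of 2 genes that could be named are not reported here. The genes and lists were chosen with earlier results of these data known. Cardiac, smooth muscle and fibroblast markers were checked too. Smooth muscle markers summed to 528, 299, 402 and 377 FPKM (media, MRSA, PA, MRSA + PA), and fibroblast markers to 10894, 6553, 6514 and 5466 FPKM. The features of MSC, JSRP1 and IGF2 are shorter than the RefSeq genes, at 1786, 4747 and 7509 bp against 5870, 16734 and 17391 bp. So are those of KRT5 and RYR1, each the higher of 2 of its name, at 1087 and 48489 bp against 5730 and 131228 bp. The arithmetic was tested on simulated data. Alternatives were other added values, scalings, filters, folds, summed features and the rounded tables. Python 3.11.15, numpy 2.4.6, pandas 2.3.3 and matplotlib 3.10.9 were used.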

Additional observations from a re-analysis of the deposited data

How the results depend on the processing

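With 1 library per group nothing could be left out, FPKM carry no depth, and low values are near 0, so the size of a difference from PA or MRSA + PA depends on the value added. No paired analysis was possible because each group is 1 library. The medians of the 3 comparisons with media and of both with MRSA were below 0 under every alternative, and that of MRSA + PA against PA was 0 or below. With 1 FPKM added, 7 genes rather than 9 were at least 2-fold lower in MRSA than in media. The median log2 differences were then -2.53 in PA and -2.53 in MRSA + PA against media. Against MRSA they were -1.28 in PA and -1.28 in MRSA + PA, with 5 genes lower than MRSA in each. With 0.01 FPKM added these 4 medians, in the same order, were -7.45, -7.42, -5.61 and -5.58, and 2 genes were lower in MRSA + PA than in PA. Without the filter, PA against media gave -4.87, MRSA + PA against media gave -4.85 and PA against MRSA gave -3.08. With a mean of at least 5 FPKM only TRIM63 and FBXO32 remained, and the counts of lower genes were 1 in each comparison with media and in each with MRSA. Their medians against media were then -0.81, -2.23 and -2.74 for MRSA, PA and MRSA + PA, and -1.42 in PA and -1.94 in MRSA + PA against MRSA. At 4-fold, 0 genes were lower in MRSA than in media and 0 in MRSA + PA than in PA, and at 1.5-fold 2 were lower in the latter. Both scalings, summed features and the rounded tables changed no count by over 1.5 times. Equal FPKM sums moved the median of all features in PA against media from 0.07 to 0.24. Levels per reference gene in PA and MRSA + PA moved for all 10 genes when the median over reference genes replaced the sum, and the cause was not tested.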
